A study of Drosophila melanogaster with 6 samples.

Results

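Aminoacyl-tRNA synthetases were followed on 6 Affymetrix arrays of S2 cells, an embryonic Drosophila line with haemocyte features. The genes were taken by name: a probe set had to carry 1 gene symbol, and that symbol had to be a 3-letter amino acid code (or GluPro) followed by RS, with or without the suffix -m that marks a mitochondrial enzyme. Of 33 such genes in the RefSeq gene table, 30 had a probe set, 16 of them named as cytosolic and 14 as mitochondrial, out of 11982 genes with a single-symbol probe set. All 30 passed the filter on low signal, among 6610 genes that did. AspRS, MetRS and AlaRS-m had no listed probe set and are not analysed here. Each gene is given by 1 probe set, the one with the highest mean signal over the 6 arrays, and 29 of the 30 have no other.

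The cells had been transfected with empty vector (2 arrays) or with the plasmid pAc-Clk, which expresses the clock transcription factor Clk from an actin promoter, at 10 ng (2 arrays), 30 ng (1 array) or 100 ng (1 array). RNA was taken at 48 h in all groups. The labels do not give the share of cells that took up the plasmid, and nothing in them tells whether replicate arrays came from different cultures. The p-values therefore cover array-to-array spread that may be technical only. In bulk RNA a lower signal in all cells and a loss in some of them cannot be told apart.

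Aminoacyl-tRNA synthetases join each amino acid to its tRNA and so set which amino acid every codon receives. They fall into 2 structural classes with unrelated catalytic domains. Animal cells need the set of enzymes in 2 places, since both the cytosol and the mitochondrial matrix translate, and nuclear genes encode both sets. In animals several cytosolic enzymes (those for arginine, aspartate, glutamine, isoleucine, leucine, lysine and methionine, and the fused glutamyl-prolyl enzyme) assemble with the scaffold proteins AIMP1, AIMP2 and AIMP3 into the multisynthetase complex. The gene table names no -m gene for glycine, lysine, histidine, threonine or glutamine. In human cells the glycyl and lysyl enzymes of both compartments come from 1 gene each, so "cytosolic" here means only a symbol without -m.

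Signals are on a log2 scale inferred from the data, on which a difference of 1 is a doubling. Read without that inference (at face value), the same data give log2 changes that are larger by a factor of 1.44. Levels of different probe sets are not comparable, because probes differ in brightness, and the ranges given next only show where the readings lie. On the control arrays the mean signal ran from 10.38 (GlnRS) to 12.10 (SerRS) over the cytosolic genes and from 6.57 (ValRS-m) to 9.83 (AspRS-m) over the mitochondrial ones. These ranges do not overlap, so compartment and signal level cannot be told apart, and a low reading has less room to fall. Control signal and change at 100 ng had a Spearman correlation of -0.26 over all genes. It was 0.23 within the cytosolic and 0.47 within the mitochondrial members. The lowest member reading on any array, 4.64 for IleRS-m at 100 ng, lay above the highest Tag control probe set of that array (3.56), which detects no fly transcript.

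The 30 and 100 ng arrays stood apart from the other 4 in signal along control transcripts. Averaged over GAPDH, actin and eIF-4a, the 5' probe sets minus the 3' ones read -0.75 on both control arrays and -1.25 and -0.64 at 10 ng, against -9.40 at 30 ng and -8.25 at 100 ng. The middle minus 3' difference was between -0.58 and -0.44 on the control and 10 ng arrays, -2.78 at 30 ng and -6.60 at 100 ng. Each of these doses is 1 array, so the dose and this loss of signal towards the 5' end cannot be told apart, and where the synthetase probe sets lie in their transcripts was not examined. Haemocyte markers were present, with 9 of 9 genes passing the signal filter and a summed signal (log2 of the sum) of 16.49 and 16.62 in the controls, 16.42 and 16.23 in the 10 ng pair, 16.34 at 30 ng and then 15.82 at 100 ng. At 100 ng 4 of them fell (Pxn at -3.56, Col4a1 at -2.58, Hml and NimC1), 3 rose (Ppn at 1.73, crq and eater) and 2 did not pass. Germ-line markers (3 of 4 with a probe set) summed to 7.68 and 7.71 in the controls, 7.85 and 7.52 in the 10 ng pair, 8.31 at 30 ng and then 9.61 at 100 ng. At 100 ng bam alone carried this sum (9.57, a rise of 2.06), while osk fell by 0.77 (limma adjusted p = 0.0211). The osk reading at 100 ng, 3.49, lay under the highest Tag control of that array (3.56). The germ-line gene vas stayed at background, with 2.60 and 2.56 in the controls and 3.39 at 100 ng. Neuronal markers (2 of 3) summed to 6.25 and 6.46 in the controls, 6.05 and 6.52 in the 10 ng pair, 6.43 at 30 ng and then 7.64 at 100 ng. At 100 ng elav carried this sum (7.53), while nSyb read 3.87 and did not pass the signal filter. Muscle markers (2 of 3) lay under the highest Tag control on all arrays, and fat body markers (3 of 4) summed to between 5.09 and 5.38. The part of these markers in the results was not tested.

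**Figure D1:**
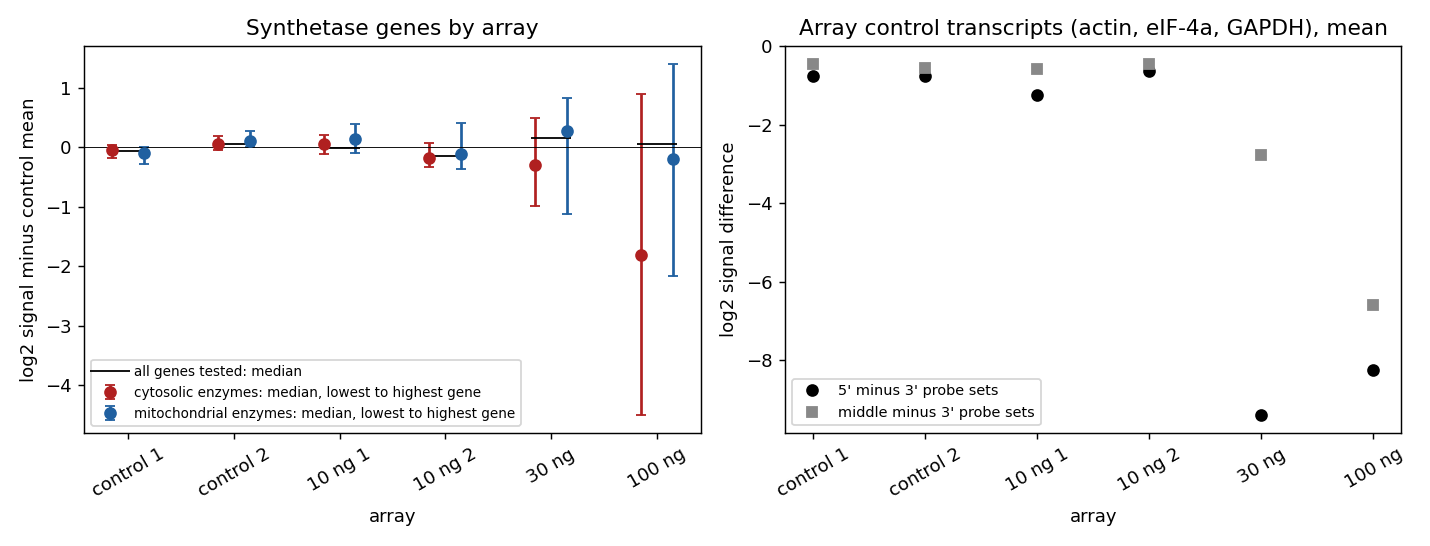
Left, log2 signal minus the control mean on each of the 6 arrays: points are medians over 16 cytosolic or 14 mitochondrial synthetase genes, bars run from the lowest to the highest gene, and black dashes are the median of all 6610 genes. Right, mean log2 difference of 5' and of middle probe sets from 3' probe sets over actin, eIF-4a and GAPDH, which read -9.40 and -8.25 (5') on the 30 and 100 ng arrays against -0.75 in controls.

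At 10 ng, the dose with replicates, no synthetase gene changed detectably. Of 30 genes 0 were called by limma (Benjamini-Hochberg adjusted p under 0.05), 0 had an unadjusted p under 0.05, and the background was 0.0605% of all genes. Differences ran from -0.18 (ThrRS) to 0.35 (ValRS-m), with a median of -0.04 against -0.09 for all genes. The 95% intervals bound what these arrays could miss: the widest reach was -0.71 for MetRS-m and 0.81 for ValRS-m.

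ValRS-m, the mitochondrial valyl enzyme, read 6.52 and 6.61 in the controls and 6.85 and 6.98 in the 10 ng pair. Both 10 ng values lay above both controls, as they did for 3 of 30 synthetase genes, against 3.57% of all genes. The difference of 0.35 (SE 0.21) did not pass (limma adjusted p = 1.00). Both 10 ng arrays lay below both controls for 3 other members, against 22.9% of all genes.

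Much of the scatter at 10 ng was common to an array. In 25 of 30 synthetase genes replicate 2 read lower than replicate 1, as did 73.4% of all genes. Likewise 26 of 30 members read lower on control replicate 1 than on control replicate 2, and 76.8% of all genes did. The median of the cytosolic members stood 0.05 above the control mean on 10 ng replicate 1 and -0.19 from it on replicate 2, and the mitochondrial median stood at 0.13 and -0.11.

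At 30 ng, 6 of 30 synthetase genes fell and 0 rose. The falling genes were 5 cytosolic enzymes and 1 mitochondrial one. Over all genes 10.4% were called lower and 6.22% higher, 16.6% in either direction, so the share of cytosolic members that fell (31.3%) was above the background and that of mitochondrial members (7.14%) was not. These p-values assume that the single array varies like the replicated groups.

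SerRS, which charges serine tRNA and also selenocysteine tRNA in animals that use it, read 12.05 and 12.15 in the controls, 12.07 and 12.01 in the 10 ng pair and 11.12 at 30 ng. Only the 30 ng array was low among these 5, and the change was -0.98 (SE 0.16, limma adjusted p = 0.00226), a 1.98-fold fall. LeuRS, the leucyl enzyme of the multisynthetase complex, read 10.50 and 10.54 in the controls, 10.52 and 10.23 in the 10 ng pair and 9.61 at 30 ng, a change of -0.91 (adjusted p = 0.0139). TyrRS fell by 0.87, AlaRS by 0.80 and AsnRS by 0.67, with adjusted p of 0.00733, 0.00819 and 0.0215. Of 15 alternative settings AsnRS missed the threshold in 5, LeuRS in 2 and AlaRS in 1. The SerRS and TyrRS calls held in all 15.

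MetRS-m, the mitochondrial methionyl enzyme, read 6.91 and 7.47 in the controls, 7.09 and 6.95 in the 10 ng pair and 6.07 at 30 ng. Its controls were the least alike of all members (SD 0.40). The change was -1.12 (SE 0.30, adjusted p = 0.0314), and the call was lost with no filter, at face value, without either 10 ng array, and without control replicate 2 (-0.84, adjusted p = 0.114). The median change was -0.30 over the 16 cytosolic genes and 0.27 over the 14 mitochondrial genes, against 0.15 over all genes. Quantile normalization gave -0.31 and 0.35, and median centring gave -0.33 and 0.24. The number of members called was 2 with no filter, 3 at face value, 10 with a filter at 6 and 12 with robust moderation. It was 13 after quantile normalization, where 5 were higher and 8 lower. The calls over all genes moved too. With no filter 196 were higher and 254 lower of 11982 genes, and at face value 118 and 338 of 9008. A filter at 6 gave 784 and 796 of 5821, robust moderation 975 and 839 of 6610, and quantile normalization 985 and 775 of 6614.

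At 100 ng most cytosolic enzymes fell, while mitochondrial enzymes went both ways. The changes of the 2 groups overlap in range, and the difference between the groups was not tested. Of 16 cytosolic genes 11 fell (68.8%), 2 rose (ArgRS, and TrpRS by its brightest probe set) and 3 did not pass. Of 14 mitochondrial genes 4 fell (28.6%), 4 rose (28.6%) and 6 did not pass. Over all genes 35.4% were called lower and 34.9% higher on this array, 70.3% in all. Both mitochondrial shares lay below these, and the 21 calls among all 30 members were near the share over all genes. After median centring 4 members were called higher and 20 lower, against 6 and 15 as deposited. All genes moved the same way, to 1517 higher and 2873 lower of 6632, against 2308 and 2338 of 6610 as deposited. The median change was -1.81 over cytosolic genes, -0.19 over mitochondrial genes and 0.05 over all genes.

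Relative to the median of all genes, the cytosolic median stood at -1.86 in the values as deposited, -1.87 with quantile normalization and -1.85 with median centring. Median centring moves all genes of an array alike, so its value could differ only through which genes passed the filter. The mitochondrial median stood at -0.24, 0.10 and -0.24 in the same settings, so its direction depended on scaling. Those settings moved the median of all genes from 0.05 to 0.26 and to -0.36. The control 5' minus 3' signal of this array was -8.25, and the middle minus 3' signal -6.60.

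**Figure D2:**
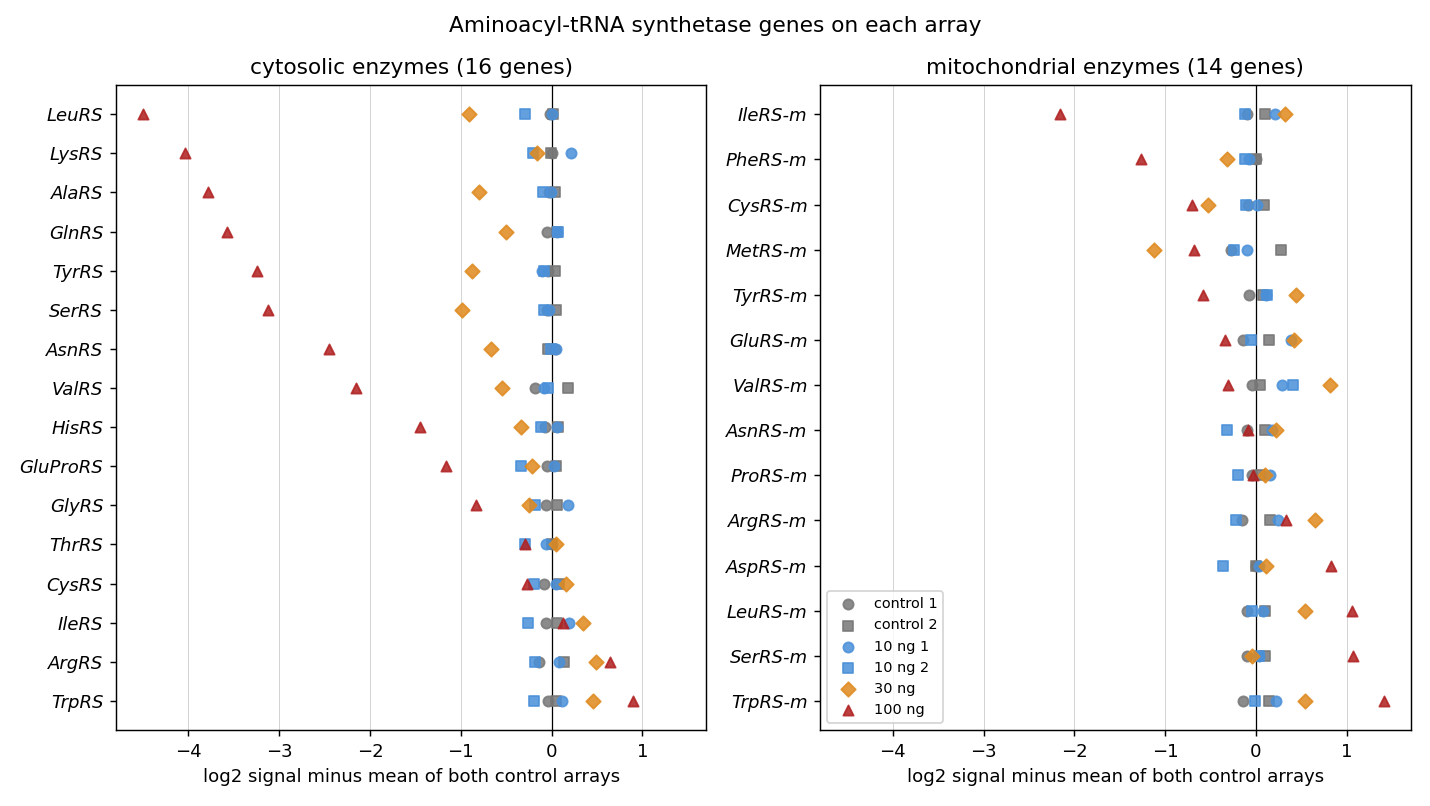
Log2 signal of each synthetase gene minus the mean of its 2 control arrays (horizontal axis), 1 point per array, with cytosolic enzymes on the left and mitochondrial enzymes on the right, ordered by the 100 ng array. Control and 10 ng points cluster around 0 for all genes, while 100 ng points run from -4.50 (LeuRS) to 0.90 (TrpRS) on the left and from -2.16 (IleRS-m) to 1.41 (TrpRS-m) on the right.

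The largest fall was that of LeuRS, which read 6.01 at 100 ng against 10.50 and 10.54 on the control arrays. Its change of -4.50 (SE 0.20, limma adjusted p = 6.88e-08) is a 22.7-fold fall. LysRS, the lysyl enzyme, had read 11.59 and 11.58 in the controls, 11.80 and 11.38 in the 10 ng pair and 11.42 at 30 ng, and dropped to 7.54 at 100 ng. Its change was -4.04 (SE 0.20, adjusted p = 1.07e-07), a 16.5-fold fall, although at 30 ng it had differed by only -0.16 (adjusted p = 0.581). LysRS thus passed at 100 ng and not at 30 ng, as did GlnRS, ValRS, HisRS, GluProRS and GlyRS.

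AlaRS, which recognises alanine tRNA largely by its acceptor stem, read 11.86 and 11.93 in the controls, 11.88 and 11.80 in the 10 ng pair, 11.10 at 30 ng and then 8.11 at 100 ng. That is a 13.8-fold fall at 100 ng (change -3.79, SE 0.16, adjusted p = 4.85e-08). GlnRS, another enzyme of the complex, read 10.33 and 10.44 in the controls and 6.81 at 100 ng, an 11.9-fold fall. TyrRS fell 9.50-fold, SerRS 8.69-fold, AsnRS 5.45-fold and ValRS 4.46-fold. Smaller falls were those of HisRS (2.74-fold), GluProRS (2.24-fold) and GlyRS (1.78-fold). Each of these 11 falls passed in all 15 alternative settings that include the 100 ng array.

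The cytosolic enzymes not called lower were ThrRS, CysRS, IleRS, ArgRS and TrpRS. ThrRS differed by -0.29 (95% interval -0.66 to 0.08), CysRS by -0.27 (-0.67 to 0.12) and IleRS, a member of the complex, by 0.13 (-0.31 to 0.57). ArgRS, also of the complex, read 10.70 and 10.97 in the controls, 10.91 and 10.65 in the 10 ng pair, 11.32 at 30 ng and then 11.47 at 100 ng. Its rise of 0.64 at 100 ng (adjusted p = 0.0123) was lost with no filter, after median centring (0.23, adjusted p = 0.340) and without control replicate 1. TrpRS rose by its brightest probe set (0.90, adjusted p = 0.00113), which is taken up further on because its probe sets disagreed.

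Falling cytosolic genes were found inside and outside the complex and in both structural classes. Of the 6 complex enzymes measured, 4 fell and ArgRS rose at 100 ng, with a median of -2.37. Of the 10 outside the complex 7 fell and 1 rose, with a median of -1.81; the 1 is TrpRS by its brightest probe set. Class I enzymes had a median of -1.21 (4 of 8 fell, 2 rose) and class II enzymes -2.45 (6 of 7 fell, 0 rose), with the fused GluProRS belonging to both. With TrpRS, a class I enzyme, taken by its second probe set, a choice made after seeing the data, 5 of 8 class I enzymes fell, 1 rose and the median was -1.82. Outside the complex 8 of 10 then fell and 0 rose.

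Among mitochondrial enzymes at 100 ng, the largest rise was that of TrpRS-m, the tryptophanyl enzyme. It read 9.16 and 9.44 in the controls, 9.52 and 9.29 in the 10 ng pair, 9.85 at 30 ng and then 10.71 at 100 ng. Both single arrays lay above all 4 others, and the 100 ng change of 1.41 (SE 0.21, limma adjusted p = 0.000179) is a 2.65-fold rise.

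SerRS-m, the seryl enzyme of mitochondria, read 8.76 and 8.96 in the controls, 8.90 and 8.89 in the 10 ng pair, 8.82 at 30 ng and then 9.93 at 100 ng, a 2.11-fold rise (adjusted p = 0.000967). Here the 100 ng array alone was high. LeuRS-m, the leucyl enzyme, read 8.95 and 9.14 in the controls, 9.12 and 8.998 in the 10 ng pair, 9.58 at 30 ng and then 10.11 at 100 ng, a 2.09-fold rise (adjusted p = 0.000892). AspRS-m rose 1.77-fold (adjusted p = 0.00498), a call lost after median centring (0.42, adjusted p = 0.113).

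IleRS-m, the isoleucyl enzyme of mitochondria, read 6.69 and 6.90 in the controls, 7.01 and 6.67 in the 10 ng pair, 7.12 at 30 ng and then 4.64 at 100 ng. It was the one mitochondrial member that fell more than 4-fold (change -2.16, SE 0.28, adjusted p = 7.49e-05), and at 30 ng it had differed by 0.33. PheRS-m, which unlike its cytosolic counterpart works as a single chain, read 9.41 and 9.42 in the controls, 9.33 and 9.30 in the 10 ng pair, 9.09 at 30 ng and then 8.15 at 100 ng, a 2.41-fold fall (adjusted p = 0.000245). CysRS-m fell by 0.71 (adjusted p = 0.0208) and TyrRS-m by 0.59 (adjusted p = 0.0472). Both calls were lost after quantile normalization, with values of -0.28 and -0.07, and without control replicate 2. TyrRS-m also missed the threshold without control replicate 1, without either 10 ng array and with a replicate block. The 6 others, MetRS-m, GluRS-m, ValRS-m, AsnRS-m, ProRS-m and ArgRS-m, lay between -0.68 and 0.33.

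Enzymes for the same amino acid were set side by side in 11 pairs, with GluProRS paired with both GluRS-m and ProRS-m. The pairs share the arrays, so the counts are descriptions. The cytosolic enzyme changed less upwards or more downwards than its mitochondrial partner in 10 of 11 pairs at 10 ng, 9 at 30 ng and 8 at 100 ng. The median difference, cytosolic minus mitochondrial, was -0.14, -0.64 and -1.13. At 10 ng it was smaller than the standard error of most single changes (median 0.16), and none of the changes passed.

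Leucine gave the widest gap at 100 ng, with a change of -4.50 for LeuRS and 1.06 for LeuRS-m. Serine followed, with -3.12 for SerRS and 1.07 for SerRS-m. The order was turned for isoleucine, with 0.13 for IleRS and -2.16 for IleRS-m, for cysteine (-0.27 and -0.71) and for arginine (0.64 and 0.33). For tryptophan TrpRS-m was higher by 1.41, while TrpRS differed by 0.90 on its brightest probe set and by -1.49 on its second.

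**Figure D3:**
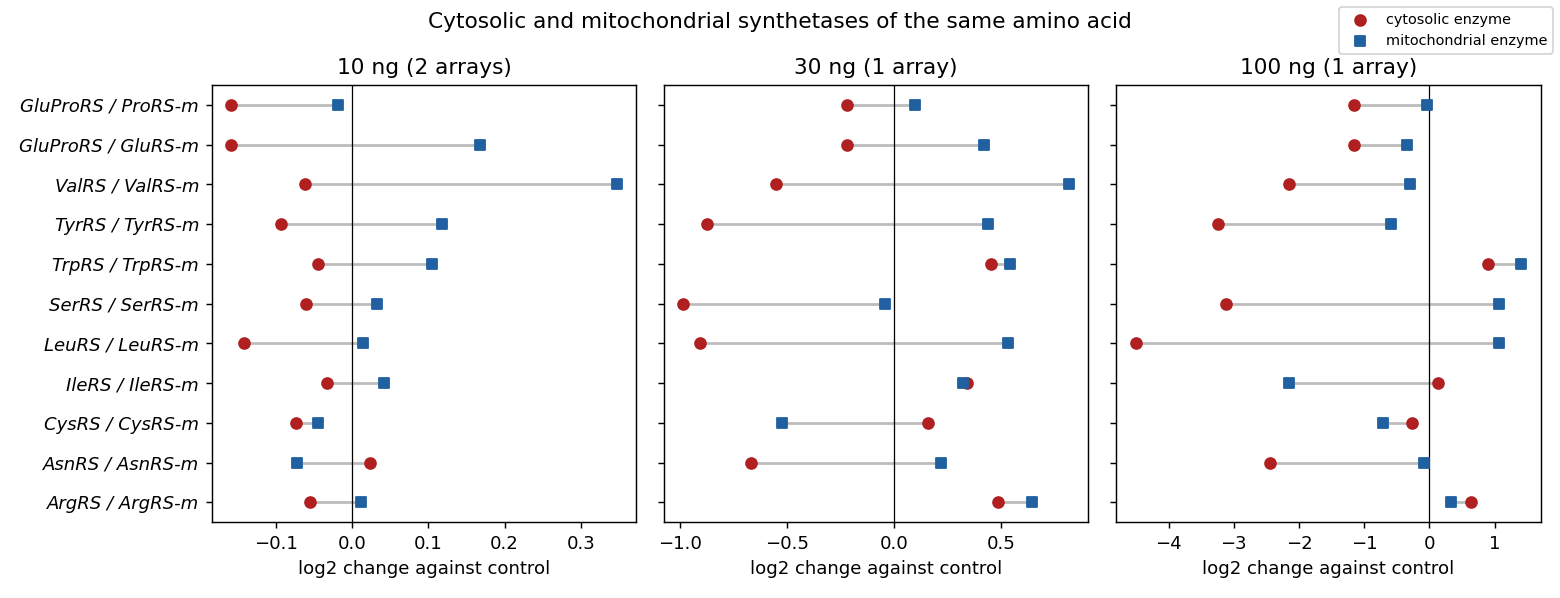
Log2 change against control of the cytosolic (red circle) and mitochondrial (blue square) enzyme of each amino acid, with a separate horizontal scale for each dose. The cytosolic point lies to the left in 10, 9 and 8 of 11 pairs at 10, 30 and 100 ng, and the isoleucine pair is turned at 100 ng (0.13 and -2.16).

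TrpRS was the one member with several probe sets, and they disagreed at 100 ng. The brightest, 1638511_at, read 11.74 and 11.82 in the controls, 11.89 and 11.58 in the 10 ng pair, 12.24 at 30 ng and then 12.68 at 100 ng. The second, 1635547_a_at, read 11.30 and 11.36 in the controls, 11.27 and 11.15 in the 10 ng pair, 11.46 at 30 ng and then 9.85 at 100 ng. The first was higher at 100 ng than on any other array and the second lower than on any other.

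Their changes at 100 ng were 0.90 (SE 0.17, limma adjusted p = 0.00113) and -1.49 (SE 0.16, adjusted p = 2.51e-05). At 10 ng they differed from control by -0.04 and -0.12, and neither passed. The third probe set, 1629619_at, was not tested, as it read 3.95 and 3.74 in the controls and lay under the highest Tag control at 30 ng (2.83 against 3.18) and 100 ng (3.07 against 3.56). With every probe set of the gene averaged, the third included, TrpRS differed by -0.46 at 100 ng and did not pass (limma adjusted p = 0.0671). A direction for TrpRS is therefore not given, and the other 29 members have no second probe set to compare.

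**Figure D4:**
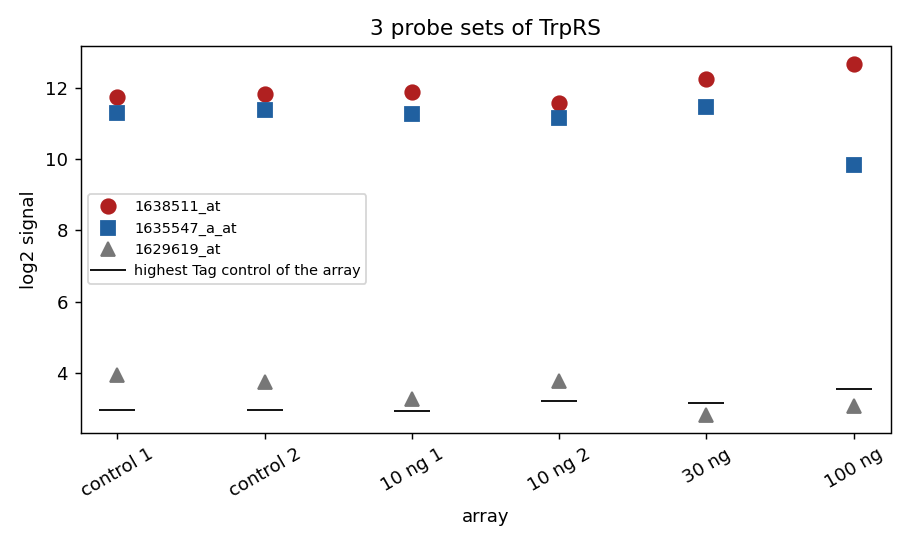
Log2 signal of the 3 TrpRS probe sets on each of the 6 arrays, with black dashes for the highest Tag control of the array. At 100 ng the brightest probe set lies above its controls (12.68 against 11.74 and 11.82) and the second below its own (9.85 against 11.30 and 11.36).

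The mean of the 3 doses against control gave 13 lower and 3 higher calls among the 30 members. Of the cytosolic genes 10 fell (62.5%) and TrpRS rose by its brightest probe set. Of the mitochondrial genes 3 fell (MetRS-m, IleRS-m and PheRS-m) and 2 rose (TrpRS-m and LeuRS-m). Over all genes 26.9% were called lower and 23% higher, 49.8% in all. Members split into 7 higher and 12 lower after quantile normalization and into 1 higher and 15 lower after median centring. All genes split into 2388 higher and 1645 lower of 6614, and into 841 and 2096 of 6632, in those settings. The median was -0.77 for cytosolic and 0.05 for mitochondrial members, against 0.04 for all genes.

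The mean count rested on the 100 ng array: without it 2 of 30 passed, SerRS (-0.52, adjusted p = 0.0217) and TyrRS (-0.48, adjusted p = 0.0443). Without control replicate 1 the count was 11, all lower: TrpRS-m (0.55, adjusted p = 0.0671), LeuRS-m (0.44, adjusted p = 0.172) and TrpRS (0.39, adjusted p = 0.187) were lost. Without control replicate 2 the count was 10. MetRS-m and IleRS-m were each lost when any of several single arrays was left out, control replicate 2 among them (-0.38 and -0.50). In 2 of 30 members, TyrRS and PheRS-m, every one of the 4 Clk arrays read below both controls, and in 0 members above them. The shares over all genes were 7.66% and 1.88%, so neither count of members exceeded the background. TyrRS, the tyrosyl enzyme, read 10.78 and 10.85 in the controls, 10.71 and 10.74 in the 10 ng pair, 9.94 at 30 ng and then 7.57 at 100 ng. PheRS-m moved in the same order with a smaller change, -0.56 over the doses (adjusted p = 0.00865), which did not pass without either control or without the 100 ng array (adjusted p = 0.0805, 0.0717 and 0.530).

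Most tRNA charging genes outside the naming rule fell at 100 ng. Of 8 tested, 6 fell and 0 rose at 100 ng, where 35.4% of all genes were called lower. The same counts held over the mean of the doses, against 26.9% of all genes. At 30 ng 3 fell (alpha-PheRS, AIMP1 and AIMP3), against 10.4% of all genes, and at 10 ng 0 were called. alpha-PheRS and beta-PheRS encode the subunits of the cytosolic phenylalanyl enzyme and changed by -3.44 and -1.77 at 100 ng (limma adjusted p = 3.89e-07 and 1.29e-05). The complex scaffolds AIMP1, AIMP2 and AIMP3 changed by -2.81, -2.26 and -2.18. AIMP1 read 10.83 and 11.08 in the controls, 10.83 and 10.82 in the 10 ng pair, 10.19 at 30 ng and then 8.14 at 100 ng. GatA, a subunit of the amidotransferase that makes mitochondrial glutaminyl-tRNA, changed by -2.58, whereas its partner GatB differed by 0.44 and the seryl-tRNA synthetase-like mitochondrial protein Slimp by 0.07, and neither passed. Without the 100 ng array 0 of the 8 were called over the mean of the doses.

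Genes of the response to amino acid shortage moved both ways. Of 9 tested, 5 rose and 2 fell over the mean of the doses, where 23% of all genes were called higher and 26.9% lower, and without the 100 ng array AsnS alone passed, of 8 tested. AsnS, which makes asparagine, read 9.15 and 9.33 in the controls, 9.20 and 9.19 in the 10 ng pair, 7.17 at 30 ng and then 4.03 at 100 ng. Its changes of -2.07 at 30 ng and -5.21 at 100 ng had adjusted p of 0.00028 and 6.94e-08. AsnRS, the enzyme that uses its product, changed by -0.67 and -2.45.

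crc, the fly ATF4 gene, which activates synthetase and amino acid genes under stress, fell by 1.24 at 100 ng (adjusted p = 0.000131). Gcn2, the kinase that senses uncharged tRNA, rose by 1.501 at 100 ng (adjusted p = 0.000808). REPTOR and REPTOR-BP, transcription factors held in check by TOR signalling, rose by 1.28 and 1.04, and Sesn, an inhibitor of that pathway, rose by 1.04. These values come from the array with a control 5' minus 3' signal of -8.25. At 30 ng, where that signal was -9.40, REPTOR (0.85) was the 1 gene of 9 called higher and AsnS the 1 called lower. Over all genes 6.22% were called higher and 10.4% lower at 30 ng.

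**Figure D5:**
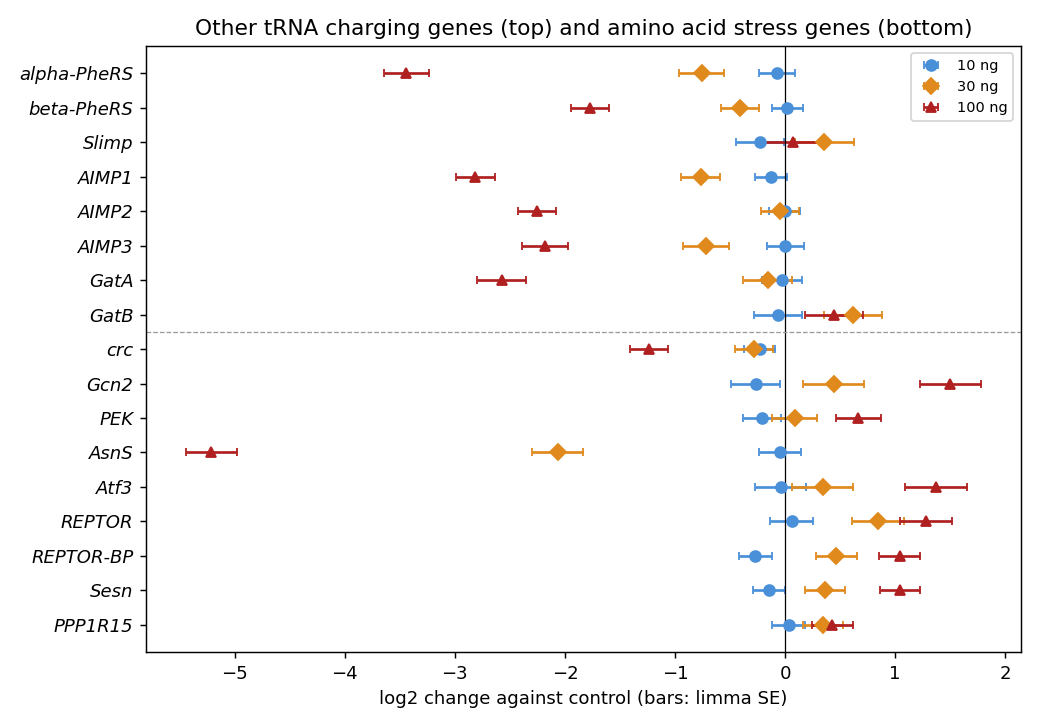
Log2 change against control (horizontal axis, bars are limma standard errors) of 8 tRNA charging genes outside the naming rule, above the dashed line, and 9 genes of the amino acid stress response, below it, at 10, 30 and 100 ng. At 100 ng alpha-PheRS, beta-PheRS, AIMP1, AIMP2, AIMP3 and GatA lie between -3.44 and -1.77, and AsnS lies at -5.21.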

How the data were processed

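RNA labelled with biotin was hybridised to Affymetrix arrays, per the labels, and the submitters' processing notes name GCRMA and give neither its version nor its options. What was deposited is 1 column of linear intensity per array (0 columns unassigned). Their log2 reaches 22.86, beyond a 16-bit scanner for 8701 of 113712 values, whereas their natural log spans 1.69 to 15.85. The natural log was therefore read as the log2 GCRMA value, an inference. Probe sets at 4 or more on at least 2 arrays were tested (8446 of 18952; 183 controls left out). Symbols were taken from the platform annotation and updated by Entrez ID. limma 3.58.1 in R 4.3.3 (1 coefficient per group, intensity trend, 2 residual and 7.60 prior degrees of freedom) gave Benjamini-Hochberg adjusted p over all tested probe sets. Counts of all genes use the brightest probe set of each of 6610 genes. Plots used matplotlib 3.10.9 (Python 3.11.15). The test script was tested on simulated data.

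Members, lists and tests were chosen with earlier results of these data known. By the rule for named genes all members are named, with readings on every array for those with the largest called changes or several probe sets. Planned descriptions of promoters and proteins were not made, as no sequences were used here. Depth has no meaning for arrays; their number limits the precision. Alternatives were other filters, scalings, moderation, the scale at face value, a replicate block, a 5' signal covariate and leaving out each array.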

Additional observations from a re-analysis of the deposited data

How the results depend on the processing

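At 10 ng the count of synthetase genes called stayed at 0 in all 17 alternatives, and at 100 ng it stayed between 19 and 24 in all 15. At 30 ng it was 6, against 2 with no filter, 10 with a filter at 6, 13 after quantile normalization, 3 at face value and 12 with robust moderation, and 4 to 6 with an array left out. Over the mean of the doses it was 16, and 2 to 17 with an array left out. Calls over all genes moved with the settings too, by the counts given with the 30 ng results. The cytosolic minus mitochondrial median stayed below 0 in all alternatives run. Other filters, moderation, the replicate block and median centring could not move it, because the same members stayed in and shifted alike. Those settings therefore say nothing about it. With an array left out it was -0.12 to -0.029 at 10 ng and -0.89 to -0.32 over the mean of the doses. It was -0.60 to -0.54 at 30 ng and -1.67 to -1.58 at 100 ng. At 30 and 100 ng only leaving out a control array could move it, and the single array of the dose always stayed in. The ranges at these doses therefore do not show how that array would repeat. After quantile normalization the cytosolic minus mitochondrial median was -0.66 at 30 ng, -1.97 at 100 ng and -0.95 over the doses. At face value, which multiplies all changes by 1.44, it was -0.82, -2.33 and -1.18. With the probe sets of a gene averaged, TrpRS changed sign at 100 ng (-0.46) and over the doses (-0.25), because its probe sets disagree. IleRS-m, at -0.60 over the doses, ranged from -1.06 to 0.18 with an array left out, and the 0.18 is without the 100 ng array. The causes of these differences were not tested.

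The replicate numbers of the control and 10 ng arrays come from the titles, and deviations of same-numbered arrays correlated at 0.23 over 6610 genes, which with 2 pairs does not settle a pairing. With the replicate block 0, 6, 20 and 16 members were called at 10, 30 and 100 ng and over the doses, against 0, 6, 21 and 16 without it, and TyrRS-m was the call lost. Over all genes the block gave 13 calls at 10 ng against 4. The 5' signal covariate was run for 10 ng only. For the single arrays it was not run, since its slope would come from arrays between -1.25 and -0.64 and be carried to -9.40.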

Other observations

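RNA polymerase III, which transcribes tRNA genes, showed no common direction. Of 10 genes of the enzyme and its factors tested, 0 were called at 10 ng (limma; background 0.0605% of genes), and over the mean of the doses Polr3C rose by 0.63 (adjusted p = 0.0167) while Polr3E (-1.15) and La, which binds new polymerase III transcripts (-0.43), fell. These are 3 of 10 genes, against 49.8% of all genes called in that comparison. The median change was 0.09, against 0.04 for all genes, and without the 100 ng array 0 of the 10 passed. Polr3E read 9.27 and 9.32 in the controls, 9.17 and 9.26 in the 10 ng pair, 8.51 at 30 ng and then 6.70 at 100 ng.

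Of 9 listed amino acid transporter genes 8 had a probe set and 5 passed the signal filter. path, a lysosomal and cell-surface amino acid transporter linked to growth, rose at 30 ng (0.74, adjusted p = 0.0313) and at 100 ng (1.94, adjusted p = 1.70e-05). It read 9.51 and 9.76 in the controls, 9.53 and 9.27 in the 10 ng pair, 10.38 at 30 ng and then 11.57 at 100 ng. At 30 ng path was the 1 transporter gene called of 5, against 6.22% of all genes called higher. At 100 ng mnd also rose (0.93), so 2 of 5 were called, against 34.9% of all genes called higher. Over the mean of the doses path was the 1 transporter gene called of 5, against 23% of all genes called higher, and 0 were called without the 100 ng array. The arrays at 30 and 100 ng are those with a control 5' minus 3' signal of -9.40 and -8.25.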
